A study of Mus musculus with 9 samples.

Results

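The 9 genes Egr1, Egr2, Egr3, Nr4a1, Nr4a2, Nr4a3, Nfatc1, Nfatc2 and Nfatc3, which encode transcription factors of the T-cell activation response, were read by name from a table of 35288 mouse genes. They were taken by name, with earlier results of these data known, and all 9 passed the filter on low counts that left 13697 genes. Egr3 passed it only through the SAHA libraries, where it is high. RNA-seq was performed on T15, a Smarcb1-negative murine peripheral T-cell lymphoma (PTCL) line, with 3 libraries for each of 3 groups. Control cells were T15 cells without re-expressed Smarcb1. SAHA cells received the histone deacetylase inhibitor SAHA (vorinostat) at 1 µM over 72 h. The study reports that this concentration strongly induced apoptosis in T15 cells and left most of them dead. Smarcb1-RE cells had been transduced with a lentiviral vector carrying Smarcb1 under doxycycline (Dox) control, selected with G418 and induced with Dox at 0.5 µg/µl for 72 h. For re-expression the study reports slower growth, without an effect on viability or cell cycle. The part of cell death and slower growth in the values below was not tested. The sources differ on what control cells received, since the study's text names untreated cells, a caption of it an empty vector with Dox, and the labels mention vehicle and a control plasmid. Which of these holds for the 3 control libraries could not be settled, so that Smarcb1 and the steps of transduction, selection and induction cannot be told apart. It is also not stated how many transduced clones the Smarcb1-RE libraries came from. The study names 3 biological replicates per group, while the labels do not say that replicates were grown as separate cultures. The p-values therefore measure the spread between these libraries.

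Antigen receptor signalling reaches these factors along 2 routes. Calcium released from internal stores and entering through the plasma membrane activates the phosphatase calcineurin, which dephosphorylates the cytoplasmic NFAT proteins encoded by Nfatc1, Nfatc2 and Nfatc3 and lets them enter the nucleus. Signalling through Ras and the kinases MEK and ERK acts on serum response factor (SRF) and its partners, which switch on the immediate early genes of the EGR family of zinc finger factors. The NR4A genes encode orphan nuclear receptors that are induced within a short time of receptor engagement and are known for their roles in T-cell tolerance and exhaustion, and Egr2 and Egr3 are known for their part in T-cell anergy. NFAT is regulated mainly by phosphorylation and location, which transcript counts do not show.

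Library totals ranged from 20900477 to 24941494 estimated counts, and the Smarcb1-RE libraries were the smallest. A level of 3 counts corresponded to 0.123 to 0.133 CPM (counts scaled to a common library size), taken as the limit of detection, which covers counting error only. Smarcb1 was at 0.208 ± 0.122 CPM in control, 0.336 ± 0.224 in SAHA and 6.36 ± 0.206 in Smarcb1-RE (SD, n = 3 each), as the labels require. Of 13 T-cell markers, 10 were above 1 CPM in every group, among them Cd3e, Lck and Cd8a, whereas Cd4 was at 0 in all 9 libraries and Cd2 and Thy1 did not pass the filter. Their summed level was 4200 to 4460 CPM in control, 4460 to 4520 in SAHA and 4080 to 4150 in Smarcb1-RE. Mitochondrial genes held 3.02% to 3.53% of counts in control, 3.37% to 3.76% in SAHA and 4.79% to 5.08% in Smarcb1-RE. Of 10 myeloid markers only Cd68 passed the filter, and the summed level of that list was 2.11 to 2.67 CPM in control, 5.93 to 7.45 in SAHA and 1.9 to 1.98 in Smarcb1-RE, with Cd14, Csf1r and S100a8 at 0 to 1 counts per group. Cd68 was at 1.69 CPM in control, 6.75 in SAHA and 1.65 in Smarcb1-RE, and Itgam held 31, 2 and 7 summed counts in that order. Of 5 B-cell markers Ms4a1 and Pax5 passed, and the sum was 0.936 to 1.14 CPM in control, 1.24 to 1.86 in SAHA and 7.25 to 7.97 in Smarcb1-RE, with Cd79b at 0 to 3 counts per group. Pax5 was at 0.0982 CPM in control, 0.767 in SAHA and 3.89 in Smarcb1-RE, and Ms4a1 at 0.825, 0.768 and 3.51. Of 4 stromal markers Pecam1 and Col1a1 passed, and the sum, almost all of it Pecam1, was 146 to 155 CPM in control, 108 to 122 in SAHA and 129 to 131 in Smarcb1-RE. The part of these differences in the results below was not tested.

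In SAHA, 6 of the 9 factors were upregulated, 2 were downregulated and Nfatc1 was not called. All EGR and NR4A genes rose, Nfatc2 and Nfatc3 fell. The background was broad, since 32.6% of all tested genes were called higher and 34.3% lower in this comparison (edgeR's quasi-likelihood test, Benjamini-Hochberg adjusted p under 0.05). In Smarcb1-RE against control, 4 factors were upregulated (all NR4A genes and Nfatc1) and 5 were downregulated (Egr1, Egr2, Egr3, Nfatc2 and Nfatc3), beside 39.2% and 38.6% of all genes. Compared directly, 3 factors were higher and 4 lower in Smarcb1-RE than in SAHA, where the background was 37.7% and 36.8%. The counts in both comparisons with SAHA include Egr3, which passed the filter only through SAHA. Counting both directions, 66.9% of tested genes were called in SAHA, 77.8% in Smarcb1-RE and 74.6% between the treated groups, so that a call by itself does not set the factors apart. Egr3 in SAHA had a higher log2 fold change than 99.8% of tested genes and Nr4a3 than 98%, while Nfatc2 lay above only 1.89% of them. The comparisons of SAHA and of Smarcb1-RE with control share the same control libraries. Every value below is from 3 libraries per group, and every adjusted p is from edgeR's quasi-likelihood test over all 13697 genes.

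**Figure D1:**
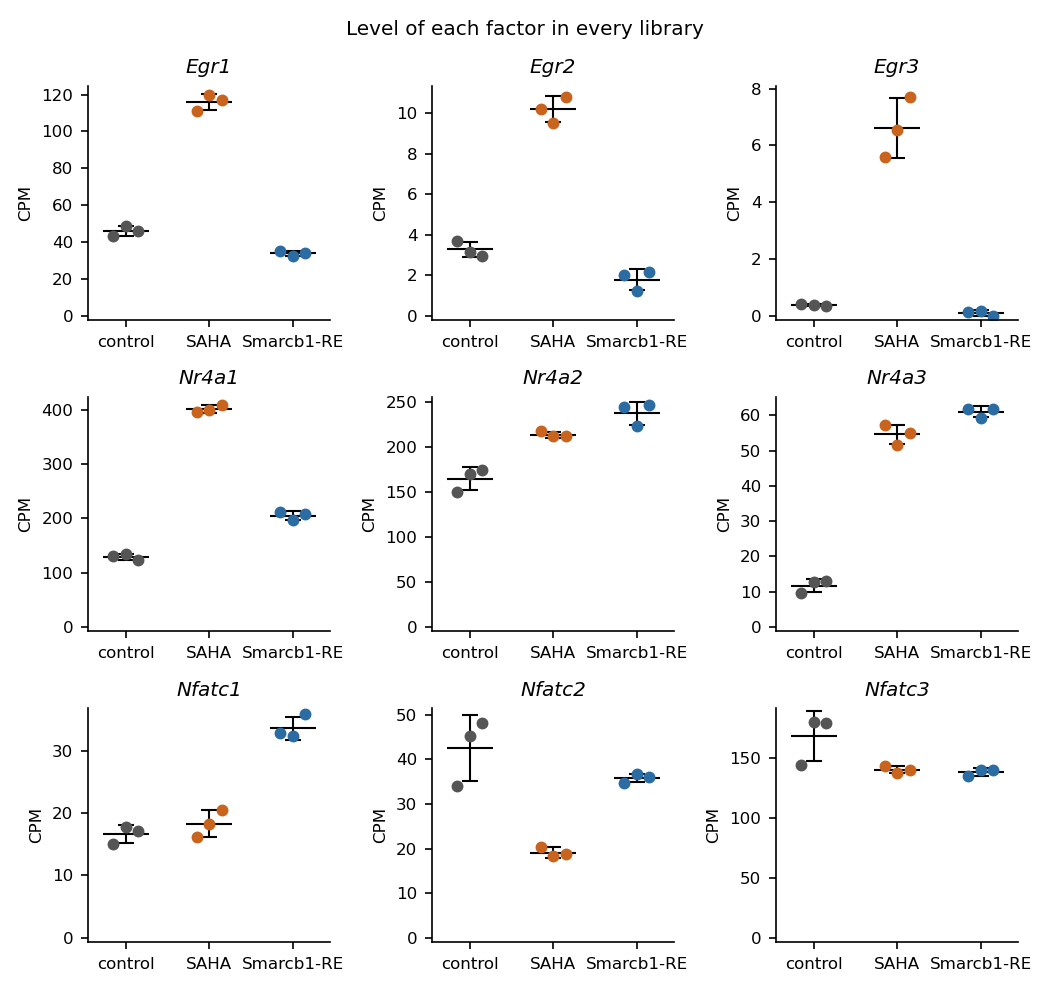
Level of each factor in CPM (vertical axes, linear) in each of the 3 control, 3 SAHA and 3 Smarcb1-RE libraries. Points are libraries, horizontal bars are group means and error bars are SD. Egr1, Egr2 and Egr3 are highest in SAHA and lowest in Smarcb1-RE, Nr4a3 is at 11.7 CPM in control against 54.6 and 61 in the other groups, and Nfatc2 is lowest in SAHA.

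Egr1, Egr2 and Egr3 moved in opposite directions in the SAHA and Smarcb1-RE groups. Egr1 (ENSMUSG00000038418, GRCm38 chr18:34859823-34864984, plus strand), the most abundant EGR gene here, had 1015, 1153 and 1117 counts in the control libraries, 2572, 2711 and 2708 in SAHA, whereas Smarcb1-RE had 817, 734 and 794. Each SAHA library exceeded every control library, and each Smarcb1-RE library was below them. In CPM this was 45.9 ± 2.79 in control, 116 ± 4.24 in SAHA and 33.9 ± 1.23 in Smarcb1-RE (SD, n = 3 each). The log2 fold change was 1.33 in SAHA (SE 0.0513, adjusted p = 1.45e-09), a 2.52-fold increase, and -0.44 in Smarcb1-RE (SE 0.0553, adjusted p = 9.51e-06). Tested genes of chromosome 18 had a median of -0.13 in Smarcb1-RE against control, beside 0.01 on the other chromosomes. The part of that shift in the Egr1 value was not tested. In bulk RNA, fewer cells that express a gene and less RNA per cell cannot be told apart.

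Egr2 (ENSMUSG00000037868, chr10:67535475-67542188, plus strand) had 87, 75 and 72 counts in control, 236, 215 and 251 in SAHA, whereas Smarcb1-RE had 47, 27 and 50. The 3 groups did not overlap, and Smarcb1-RE library 2 was the lowest of all. The mean was 3.28 ± 0.381 CPM in control, 10.2 ± 0.655 in SAHA and 1.79 ± 0.517 in Smarcb1-RE (SD, n = 3 each). Egr2 rose by 1.63 on the log2 scale in SAHA (SE 0.16, adjusted p = 1.68e-06) and fell by 0.87 in Smarcb1-RE (SE 0.191, adjusted p = 0.00104).

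Egr3 (ENSMUSG00000033730, chr14:70077203-70082614, plus strand) was close to the limit of detection in control, with 10, 9 and 8 counts, and reached 129, 148 and 179 counts in SAHA. The Smarcb1-RE libraries held 3, 4 and 0 counts, at or near that limit. Only through its SAHA libraries did Egr3 pass the filter on low counts. Its rank, calls and adjusted p in comparisons with SAHA are therefore a description. The SAHA mean was 6.61 ± 1.06 CPM, against 0.378 ± 0.0482 in control (SD, n = 3 each), and the log2 fold change of 4.11 (SE 0.304, adjusted p = 1.46e-07) was the largest among the 9 factors in that comparison. Against control, the Smarcb1-RE level was 0.268 of it (95% exact interval from counting error alone 0.0984 to 0.63, on 7 against 27 summed counts), with a fitted log2 fold change of -1.85 (SE 0.553, adjusted p = 0.00838). With each library left out in turn, that value ranged from -2.46 to -1.28 and stayed called.

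Egr1, Egr2 and Egr3 all differed between Smarcb1-RE and SAHA when these groups were compared directly. For Egr3 the call and adjusted p are a description, since it passed the filter only through SAHA. The log2 fold change was -1.77 for Egr1 (SE 0.053, adjusted p = 2.55e-11), -2.5 for Egr2 (SE 0.174, adjusted p = 3.9e-08) and -5.96 for Egr3 (SE 0.378, adjusted p = 1.64e-08). The Egr3 level in Smarcb1-RE was 0.0153 of that in SAHA (95% exact interval 0.00611 to 0.0318, counting error alone). Among these 3 genes the weights shifted. Per kilobase of exons, Egr3 made up 0.762% ± 0.12 of their summed level in control, 4.93% ± 0.66 in SAHA and 0.291% ± 0.27 in Smarcb1-RE (SD, n = 3 each). A 4th family gene, Egr4, was named after its values were seen. It was at 0.825 CPM in control, 2.42 in SAHA and 2.3 in Smarcb1-RE, and was called higher in both (log2 fold change 1.55, adjusted p = 1.43e-05, and 1.47, adjusted p = 1.52e-05). Its direction in Smarcb1-RE was opposite to that of Egr1, Egr2 and Egr3.

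The start region of Egr2 is shown as that of an EGR gene that rose in one group and fell in the other. Egr1 and Egr3 did so too, but no start window was matched for them or for Nfatc1. Capitals mark matches, on either strand, to the core of the cAMP response element (CRE, TGACG) and to the SRF-binding CArG box. Also searched were the palindromic CRE (TGACGTCA), the AP-1 site (TGACTCA), the NFAT core (GGAAA), the NR4A site (AAAGGTCA) and the EGR site (GCGTGGGCG). The bases are from RefSeq on GRCm38.p6, 5′ to 3′, chr10:67537619-67537868 on the plus strand, directly before one of the annotated starts of Egr2.
Egr2 promoter: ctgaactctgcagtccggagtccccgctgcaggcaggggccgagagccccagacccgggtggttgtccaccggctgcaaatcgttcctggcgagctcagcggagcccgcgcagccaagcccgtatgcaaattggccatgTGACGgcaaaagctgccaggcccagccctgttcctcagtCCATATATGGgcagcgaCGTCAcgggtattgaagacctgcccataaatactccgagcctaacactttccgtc
It held 2 CRE cores, 1 CArG box, 1 NFAT core and 0 matches to the other motifs searched. RefSeq gives 5 such windows for Egr2, and this one is among the 3 with the most CRE cores, which overlap and hold the same stretch. Of the others, one held 0 CRE cores, 1 CArG box and 3 NFAT cores, and the one farthest upstream held none of these. In the windows of the same length before 32851 annotated starts, 17.8% held a CRE core, 1.47% a CArG box and 55.6% an NFAT core. These motifs were chosen with the expression values known, a match is no measured binding site, and binding was not measured here.

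All 3 NR4A genes were upregulated in both groups, but in different proportions. Nr4a1 (Nur77, ENSMUSG00000023034, chr15:101254269-101274795, plus strand), widely used as a reporter of antigen receptor signalling, had 3058, 3188 and 2991 counts in control, 9109, 9048 and 9493 in SAHA, whereas Smarcb1-RE had 4965, 4431 and 4817. The groups were well separated, with Smarcb1-RE between control and SAHA. The mean was 129 ± 5.91 CPM in control, 401 ± 7.22 in SAHA and 205 ± 8.13 in Smarcb1-RE (SD, n = 3 each). The log2 fold change was 1.63 in SAHA (SE 0.0455, adjusted p = 1.2e-10) and 0.67 in Smarcb1-RE (SE 0.0453, adjusted p = 2.72e-08), and Smarcb1-RE was 0.97 lower than SAHA (log2 fold change -0.97, SE 0.0444, adjusted p = 8.77e-10).

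Nr4a2 (Nurr1, ENSMUSG00000026826, chr2:57106830-57124003, minus strand) was already abundant in control, with 3537, 4020 and 4262 counts, and rose the least. SAHA libraries held 5038, 4788 and 4944 counts, and those of Smarcb1-RE held 5743, 5051 and 5721. The mean level was 165 ± 13.1 CPM in control, 214 ± 3.5 in SAHA and 238 ± 12.9 in Smarcb1-RE (SD, n = 3 each). No control library reached the level of any library of the other groups. The log2 fold change was 0.37 in SAHA (SE 0.0574, adjusted p = 8.08e-05) and 0.53 in Smarcb1-RE (SE 0.0573, adjusted p = 2.35e-06). The difference between Smarcb1-RE and SAHA was small (0.15, SE 0.0569, adjusted p = 0.0262) and was no longer called when any of 5 single libraries was left out (Smarcb1-RE 1 or 3 or any SAHA library, 0.12 to 0.15, adjusted p from 0.0626 to 0.125).

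Nr4a3 (NOR-1, ENSMUSG00000028341, chr4:48045153-48086447, plus strand) had the largest increase of the family. It had 226, 301 and 313 counts in control, 1321, 1170 and 1274 in SAHA, whereas Smarcb1-RE had 1451, 1338 and 1434. The mean was 11.7 ± 1.84 CPM in control, 54.6 ± 2.77 in SAHA and 61 ± 1.53 in Smarcb1-RE (SD, n = 3 each). The log2 fold changes were 2.22 in SAHA (SE 0.0844, adjusted p = 1.44e-09) and 2.38 in Smarcb1-RE (SE 0.0839, adjusted p = 9.25e-11), or 4.65-fold and 5.19-fold. Although each Smarcb1-RE library lay above each SAHA library, this difference was not called (log2 fold change 0.16, SE 0.0709, 95% interval 0.01 to 0.31, adjusted p = 0.0578). Without control library 1 it was called (0.16, adjusted p = 0.00404). Nr4a3 lies on chromosome 4, whose 838 tested genes had a median log2 fold change of 0.36 in Smarcb1-RE against control, while genes of the other chromosomes had a median of -0.01. In SAHA against control the median of chromosome 4 was -0.04. In Smarcb1-RE against SAHA it was 0.38, beside 0 on the other chromosomes. The part of this shift in the Nr4a3 values was not tested.

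The NR4A start regions are shown because the 3 genes rose together. The bases are from RefSeq on GRCm38.p6, each written 5′ to 3′ on the strand of the gene, with the CRE core (TGACG on either strand) in capitals. They are chr15:101266596-101266845 for Nr4a1, chr2:57124004-57124253 for Nr4a2 and chr4:48045055-48045152 for Nr4a3, of which only the 98 bases that GENCODE does not place in an exon are given.
Nr4a1 promoter: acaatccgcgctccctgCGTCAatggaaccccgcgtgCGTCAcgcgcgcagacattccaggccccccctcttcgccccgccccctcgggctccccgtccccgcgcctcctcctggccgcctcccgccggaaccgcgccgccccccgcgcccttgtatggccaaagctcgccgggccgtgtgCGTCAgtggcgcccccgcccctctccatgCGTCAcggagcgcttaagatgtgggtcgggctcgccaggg
Nr4a2 promoter: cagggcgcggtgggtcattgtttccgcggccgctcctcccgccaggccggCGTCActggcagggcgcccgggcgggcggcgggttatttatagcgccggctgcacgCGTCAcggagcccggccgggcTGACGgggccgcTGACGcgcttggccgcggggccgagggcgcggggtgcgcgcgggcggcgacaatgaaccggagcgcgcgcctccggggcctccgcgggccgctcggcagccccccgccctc
Nr4a3 promoter: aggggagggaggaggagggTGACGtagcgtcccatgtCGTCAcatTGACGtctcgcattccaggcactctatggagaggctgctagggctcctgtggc
Each of the 3 windows of 250 bases held 4 CRE cores, of which 3 fall in the stretch shown for Nr4a3. None of the 3 windows held the longer palindromic CRE (TGACGTCA, in 1.55% of windows), the AP-1 site (TGACTCA, 4.46%) or the CArG box. None held the NR4A site (1.34%) or the EGR site (0.536%) either. The NFAT core (55.6%) had 1 match in the Nr4a2 window and 0 in those of Nr4a1 and Nr4a3. The windows of Nfatc2 and Nfatc3 differed, with 0 CRE cores in both Nfatc2 windows and 1 in the upstream Nfatc3 window. NFAT cores numbered 3 and 1 in the Nfatc2 windows and 1 in the upstream Nfatc3 window. This is a description of letters in the genome and says nothing of which factor acted.

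**Figure D2:**
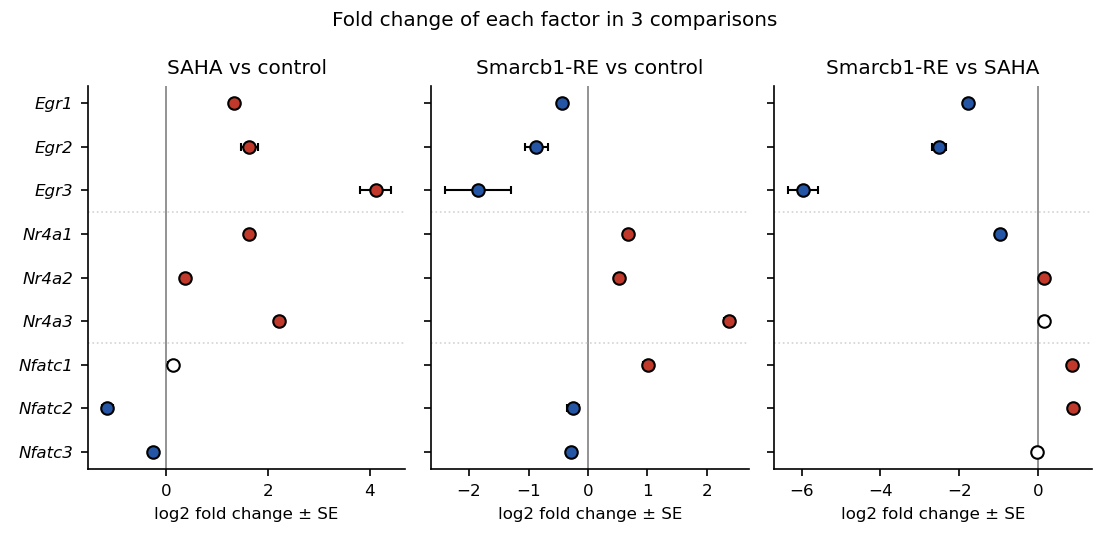
Log2 fold change ± SE of each factor (horizontal axes) in SAHA against control, Smarcb1-RE against control and Smarcb1-RE against SAHA, each over 3 libraries per group. Red points were called higher, blue points lower and white points were not called at an adjusted p under 0.05 (edgeR). The 3 EGR genes sit right of 0 in SAHA and left of 0 in Smarcb1-RE, whereas the 3 NR4A genes sit right of 0 in both.

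The NFAT genes did not move as a family. Nfatc1 (NFAT2, ENSMUSG00000033016, chr18:80606205-80713071, minus strand), an NFAT gene that is itself induced by NFAT in activated T cells, had 354, 422 and 418 counts in control, 371, 414 and 476 in SAHA, whereas Smarcb1-RE had 768, 731 and 830. Control and SAHA libraries overlapped, and every Smarcb1-RE library was above both. The mean was 16.7 ± 1.46 CPM in control, 18.3 ± 2.22 in SAHA and 33.6 ± 1.87 in Smarcb1-RE (SD, n = 3 each). The log2 fold change in Smarcb1-RE was 1.01 (SE 0.0873, adjusted p = 2.7e-07), and in SAHA 0.13 (SE 0.0921, 95% interval -0.07 to 0.33, adjusted p = 0.225). Smarcb1-RE exceeded SAHA by 0.88 (SE 0.0868, adjusted p = 1.07e-06).

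Nfatc2 (NFAT1, ENSMUSG00000027544, chr2:168476410-168601657, minus strand), which is constitutively expressed in resting T cells, was lowest in SAHA. It had 803, 1070 and 1170 counts in control, 472, 413 and 434 in SAHA, whereas Smarcb1-RE had 814, 827 and 834. Every SAHA library was below all others, while Smarcb1-RE libraries lay between control library 1 and the other two control libraries. The mean was 42.5 ± 7.38 CPM in control, 19.1 ± 1.16 in SAHA and 35.8 ± 0.954 in Smarcb1-RE (SD, n = 3 each). Nfatc2 fell by 1.15 on the log2 scale in SAHA (SE 0.106, adjusted p = 9.75e-07). The call in Smarcb1-RE was marginal (-0.25, SE 0.0992, adjusted p = 0.0352) and was lost when any Smarcb1-RE library or control library 2 or 3 was left out (-0.27 to -0.16, adjusted p from 0.0576 to 0.15). Without control library 1 it was -0.39 (adjusted p = 1.59e-05), and with library totals as the only scaling -0.09 (adjusted p = 0.432). Smarcb1-RE was 0.9 above SAHA (SE 0.108, adjusted p = 6.4e-06).

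Nfatc3 (NFAT4, ENSMUSG00000031902, chr8:106058840-106130537, plus strand) was the most abundant NFAT gene. Counts were 3394, 4270 and 4361 in control, 3293, 3089 and 3258 in SAHA, whereas Smarcb1-RE had 3161, 3165 and 3249. The lowest control library, library 1, was at 144 CPM, and the highest SAHA library at 143 CPM, so that the groups touched without overlapping. The mean was 168 ± 20.6 CPM in control, 140 ± 3.09 in SAHA and 138 ± 3.02 in Smarcb1-RE (SD, n = 3 each). Nfatc3 fell by 0.27 on the log2 scale in SAHA (SE 0.0701, adjusted p = 0.00487) and by 0.28 in Smarcb1-RE (SE 0.0702, adjusted p = 0.00267). With library totals as the only scaling, the Smarcb1-RE value was -0.12 and was not called (adjusted p = 0.149). Smarcb1-RE and SAHA did not differ detectably (-0.01, SE 0.0706, 95% interval -0.17 to 0.14, adjusted p = 0.853). Of the Nfatc3 exons, 1.87% (219 bases) overlap Esrp2 on the opposite strand, and no other factor shares exonic bases with another gene.

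Libraries of SAHA and control did not overlap for 8 of the 9 factors, 6 of them higher and 2 lower in SAHA, beside 68.7% of all tested genes (33.8% higher, 34.9% lower). Those of Smarcb1-RE and control did not overlap for 8, 4 higher and 4 lower, beside 79.5% of all genes (40.4% higher, 39.1% lower). Between Smarcb1-RE and SAHA it was again 8, 4 higher and 4 lower in Smarcb1-RE, beside 80% (40.7% higher, 39.2% lower). With a minimum log2 fold change of 1 in either direction, Egr1, Egr2, Egr3, Nr4a1 and Nr4a3 remained higher and Nfatc2 lower in SAHA, while 9.86% of tested genes were called higher and 2.37% lower by that rule. In Smarcb1-RE, Nr4a3 and Nfatc1 remained higher and Egr3 lower, beside 16.9% and 6.78% of tested genes. In Smarcb1-RE against SAHA, Egr1, Egr2 and Egr3 were lower and 0 factors higher by that rule, beside 8.21% and 11.6% of tested genes.

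To compare levels between genes, CPM were divided by the length of each gene's merged exons. In control, Nr4a2 was at 40.7 and Nr4a1 at 36.8 CPM per kb, followed by Nfatc3 (14.3), Egr1 (10.2), Nfatc2 (4.02), Nfatc1 (2.24), Nr4a3 (1.96), Egr2 (0.964) and Egr3 (0.0858). The library ranges of 2 pairs of neighbours overlapped. These were Nr4a2 and Nr4a1, whose order turned when the longest transcript was used as the length (46.3 against 50.6), and Nfatc1 and Nr4a3. In SAHA, Nr4a1 led with 114 CPM per kb, above Nr4a2 with 52.8. In Smarcb1-RE they were at 58.5 and 58.7.

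**Figure D3:**
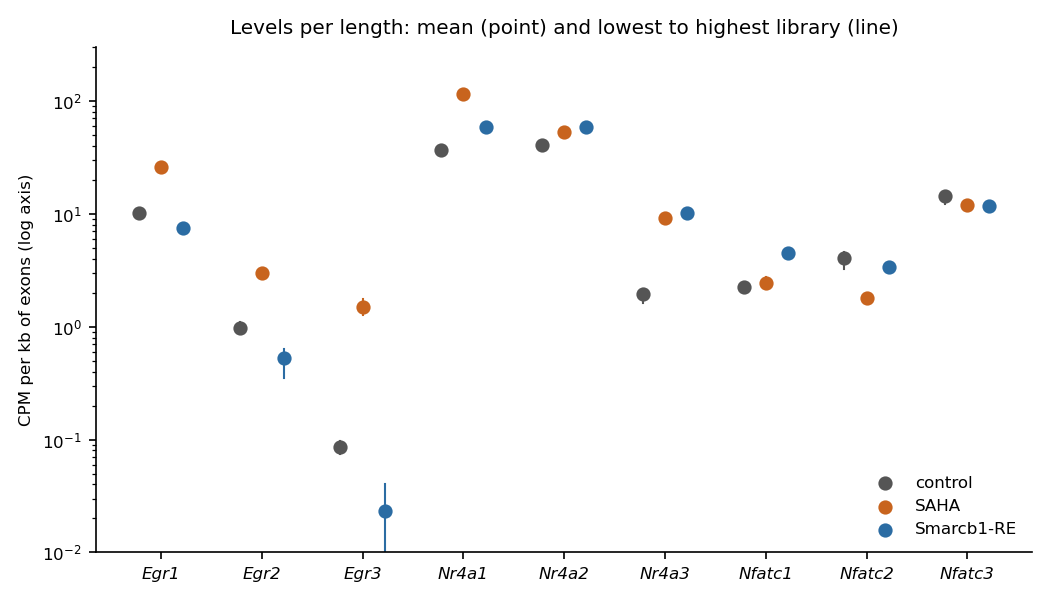
Level of each factor per kilobase of merged exons (vertical axis, log scale) in control, SAHA and Smarcb1-RE. Points are means of 3 libraries and lines run from the lowest to the highest library, the line of Egr3 in Smarcb1-RE being cut at the axis because that group holds a library at 0. Levels in control span from 0.0858 for Egr3 to 40.7 CPM per kb for Nr4a2.

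Summed over the 3 factors of each family, the EGR genes were at 11.3 ± 0.55 CPM per kb in control, 30.4 ± 1.1 in SAHA and 8.1 ± 0.41 in Smarcb1-RE (SD, n = 3 each). The NR4A sum was 79.5 ± 3.4, 176 ± 1.7 and 127 ± 5.7 in the same order. The NFAT sum was 20.6 ± 2.6, 16.2 ± 0.34 and 19.7 ± 0.49. Egr4, Nfatc4 and Nfat5 are not in these sums. In that order Egr4 was at 0.384, 1.13 and 1.07 CPM per kb, Nfatc4 at 0.0655, 0.0798 and 0.129, and Nfat5 at 3.47, 5.49 and 5.96. The NR4A sum was therefore the largest of the 3 in every group, and the EGR sum was below the NFAT sum in control and Smarcb1-RE. In SAHA the order of these sums rests on the length used, since with the longest transcript they were at 31 ± 1.1 and 30 ± 0.6 CPM per kb, with overlapping libraries.

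Ratios within a library do not depend on its scaling. The ratio of Nr4a1 to Nr4a2 was 1, 0.917 and 0.812 in the control libraries, 2.09, 2.19 and 2.22 in SAHA, and 1, 1.01 and 0.974 with Smarcb1-RE. SAHA libraries were all above the others, and control and Smarcb1-RE overlapped (two-sided exact permutation test, p = 0.1 for SAHA against control, the smallest that 3 against 3 libraries allow, and p = 0.3 for Smarcb1-RE against control). The ratio of Nr4a3 to Nr4a2 was 0.048 ± 0.004 in control and close in SAHA (0.173 ± 0.0063) and Smarcb1-RE (0.174 ± 0.0052, exact permutation p = 0.9 between them), whereas that of Nr4a3 to Nr4a1 was 0.0533 ± 0.0092, 0.0798 ± 0.0047 and 0.174 ± 0.0029. Within the NFAT family, the ratio of Nfatc1 to Nfatc2 was 0.624, 0.559 and 0.506 in control, 1.11, 1.42 and 1.55 in SAHA, and 1.34, 1.25 and 1.41 with Smarcb1-RE. Nfatc2 was thus the more abundant of this pair in control and Nfatc1 in both other groups, in SAHA with a lower Nfatc2 and in Smarcb1-RE with a higher Nfatc1. Nfatc2 to Nfatc3 was 0.279 ± 0.018 in control, 0.152 ± 0.0063 in SAHA and 0.287 ± 0.0027 in Smarcb1-RE (SD, n = 3 each). Of these family ratios, 9 were computed for each of 3 comparisons, and none can pass a threshold of 0.05 in this design.

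**Figure D4:**
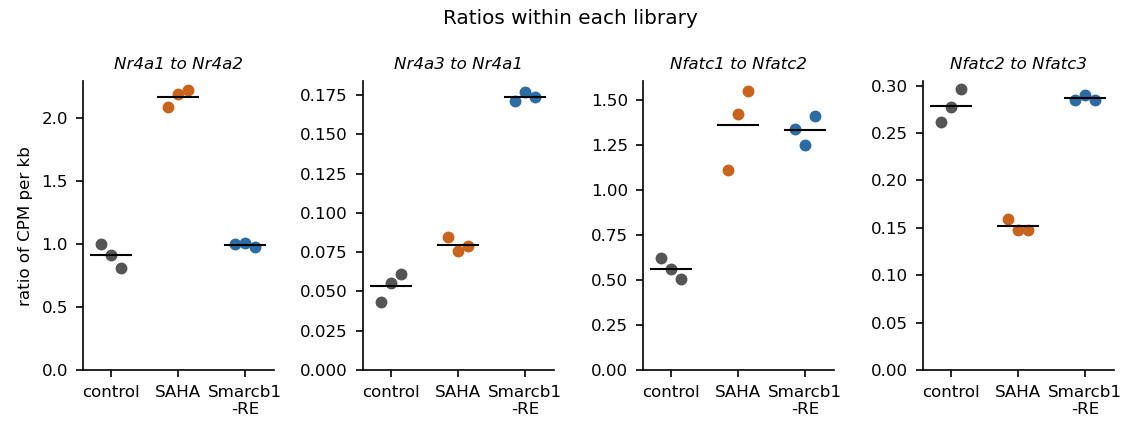
Ratios of 2 factors (CPM per kb, linear axes from 0) within each of the 3 control, 3 SAHA and 3 Smarcb1-RE libraries. Points are libraries and bars are group means. Nr4a1 to Nr4a2 is above 2 in SAHA and at or near 1 in Smarcb1-RE, and Nfatc1 to Nfatc2 is above 1 in both.

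Partners and repressors of the factors were described next. Nab1 and Nab2, corepressors that bind EGR proteins and are themselves EGR targets, were higher in SAHA (log2 fold change 0.48, adjusted p = 6.83e-07, and 0.18, adjusted p = 0.000903) and lower in Smarcb1-RE (-0.27, adjusted p = 8.51e-05, and -0.36, adjusted p = 1.73e-06). Nfat5, the family member that responds to osmotic stress and not to calcineurin, rose in both (0.66, adjusted p = 5.28e-05, and 0.78, adjusted p = 7.85e-06). Over the 7 family and cofactor genes, 4 were higher and 1, Rxrb (-0.33, adjusted p = 6.17e-06), was lower in SAHA, with a median of 0.45, and 4 were higher and 2 lower in Smarcb1-RE, with a median of 0.72 and Rxrb at 0.08 (adjusted p = 0.0732). Without Smarcb1-RE library 2, 2 and not 4 were higher in Smarcb1-RE. The median over all tested genes was 0 in SAHA and 0.01 in Smarcb1-RE. The counts of this list and of those that follow stand beside 32.6% of all tested genes called higher and 34.3% lower in SAHA, and 39.2% and 38.6% in Smarcb1-RE.

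Of 16 genes of calcium entry and calcineurin, 10 were higher and 1 lower in SAHA (62.5% and 6.25%, median log2 fold change 0.14), and 8 were higher and 6 lower in Smarcb1-RE (50% and 37.5%, median 0.21). Without SAHA library 3, 6 and not 10 were higher in SAHA. The plasma membrane calcium channel Orai1 and its sensor Stim1 rose in SAHA (1.46, adjusted p = 5.61e-08, and 0.61, adjusted p = 1.03e-06). In Smarcb1-RE, Stim1 was lower (-0.28, adjusted p = 0.000817) and Orai1 was at 11 CPM against 11.1 in control (adjusted p = 0.873). The receptor Itpr2, which releases calcium from the endoplasmic reticulum, rose in SAHA (0.66, adjusted p = 2.57e-06) and more in Smarcb1-RE (1.37, adjusted p = 1.05e-09), and Itpr1 rose from 299 CPM in control to 395 in SAHA (0.4, adjusted p = 7.73e-06) and to 606 in Smarcb1-RE (1.02, adjusted p = 7.78e-10). Calm3, a calmodulin gene, fell in both (-0.59, adjusted p = 8.47e-08, and -1.2, adjusted p = 9e-11).

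The calcineurin subunits took different courses. The catalytic subunit Ppp3ca was higher in SAHA (0.39, adjusted p = 1.8e-06) and lower in Smarcb1-RE (-0.15, adjusted p = 0.00331). Its paralog Ppp3cc rose from 85.1 to 178 CPM in Smarcb1-RE (1.06, SE 0.0431, adjusted p = 2.82e-10) and only to 94.2 CPM in SAHA (0.15, adjusted p = 0.0104). Ppp3cb was higher in Smarcb1-RE (0.35, adjusted p = 2.34e-06) and was at 112 CPM in SAHA against 115 in control (adjusted p = 0.316). The regulatory subunit Ppp3r1 was higher in SAHA (0.1, adjusted p = 0.0276) and lower in Smarcb1-RE (-0.17, adjusted p = 0.000892). The decreases of Ppp3ca and Ppp3r1 are no larger than 0.173, the median of all genes in that comparison when only library totals were used for scaling.

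Of 11 tested genes listed under inhibitors of calcineurin and NFAT, 3 were higher and 5 lower in SAHA (27.3% and 45.5%, median -0.09). In Smarcb1-RE 3 of them were higher and 3 lower (27.3% each, median 0.06). Rcan1, a calcineurin inhibitor whose transcription NFAT induces, fell in SAHA (-0.41, adjusted p = 7.41e-05) and was at 18.8 CPM in Smarcb1-RE against 17.9 in control (0.06, SE 0.0601, adjusted p = 0.349). Fkbp1a, listed as the binding protein of the calcineurin inhibitor tacrolimus, fell in both (-0.42, adjusted p = 1.8e-06, and -1.26, adjusted p = 7.72e-11). Tacrolimus is not named among the treatments of these cells. Of the kinases that return NFAT to the cytoplasm, Dyrk1a was lower in SAHA (-0.36, adjusted p = 0.000173) and at 0.09 in Smarcb1-RE (adjusted p = 0.159), and Dyrk2 was higher in both (0.41, adjusted p = 6.23e-06, and 0.22, adjusted p = 0.00109). Gsk3a was lower in both (-0.22, adjusted p = 0.000625, and -0.63, adjusted p = 4.21e-08), whereas Gsk3b was lower in SAHA (-0.19, adjusted p = 0.0452) and higher in Smarcb1-RE (0.38, adjusted p = 0.000551). The calcineurin regulator Rcan3 was higher in Smarcb1-RE (0.45, adjusted p = 4e-06) and at 0.05 in SAHA (adjusted p = 0.436).

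Of 15 tested Ras, ERK and SRF genes that feed into EGR transcription, 6 were higher and 5 lower in SAHA (40% and 33.3%, near the shares over all genes, median 0.11), and 4 were higher and 9 lower in Smarcb1-RE (26.7% and 60%, median -0.2). Srf itself fell in Smarcb1-RE (-0.58, SE 0.0478, adjusted p = 1.79e-07) and was at 47.7 CPM in SAHA against 50.5 in control (adjusted p = 0.14). Elk1, an SRF partner phosphorylated by ERK, rose in SAHA (0.94, adjusted p = 8.31e-07) and was at 0.16 in Smarcb1-RE (adjusted p = 0.12). Map2k1 (MEK1) rose in SAHA (0.5, adjusted p = 1.23e-06) and fell in Smarcb1-RE (-0.2, adjusted p = 0.00259), as did Mapk3 (ERK1, 0.46, adjusted p = 4.01e-06, and -0.18, adjusted p = 0.00548). The GTPase genes Hras (-0.27, adjusted p = 0.000542, and -1.06, adjusted p = 2.53e-09) and Nras (-0.28, adjusted p = 6.35e-05, and -0.7, adjusted p = 1.08e-08) fell in both, and the kinase gene Braf rose in both (0.45, adjusted p = 3.31e-05, and 0.88, adjusted p = 3.09e-08).

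Genes listed as ERK feedback inhibitors, which include the Ras GTPase activating genes Nf1 and Rasa2, were mostly higher in SAHA. Of 9 tested, 6 were higher and 0 lower in SAHA (median 0.34, edgeR, with 0 lower at an unadjusted p under 0.05, 0 lower in DESeq2 and 1 lower without control library 1), and 1 was higher and 4 lower in Smarcb1-RE (median -0.18). The ERK phosphatase Dusp5 rose from 80.3 to 186 CPM in SAHA (1.21, SE 0.0412, adjusted p = 6.91e-10) and fell to 31.3 CPM in Smarcb1-RE (-1.36, SE 0.0457, adjusted p = 6.54e-11). Spred2, an inhibitor of Ras signalling, rose in SAHA (0.25, adjusted p = 0.00361) and fell in Smarcb1-RE (-1.17, adjusted p = 6.2e-09), while Nf1, a Ras GTPase activating protein, rose in both (0.51, adjusted p = 0.000294, and 0.95, adjusted p = 6.29e-07). Dusp1 rose in SAHA (0.59, adjusted p = 4.64e-05) and was at -0.18 in Smarcb1-RE (adjusted p = 0.0789), and the Ras GTPase activating gene Rasa2 was higher in SAHA (0.53, adjusted p = 7.24e-07) and lower in Smarcb1-RE (-0.34, adjusted p = 3.39e-05).

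Other immediate early genes were mostly higher in SAHA, where 18 of 25 rose and 1 fell (median 0.51, with 2 lower when SAHA library 1 was left out). In Smarcb1-RE 12 rose and 8 fell (median 0.22). The AP-1 genes Fos and Fosl2 rose from 10.8 to 37.6 CPM and from 25.1 to 71.1 CPM in SAHA (1.79, adjusted p = 7.04e-09, and 1.5, adjusted p = 1.95e-09) and by less in Smarcb1-RE (0.34, adjusted p = 0.00702, and 0.5, adjusted p = 9.72e-06). Klf4 rose in both (1.24, adjusted p = 9.5e-09, and 0.46, adjusted p = 4.37e-05). Ppp1r15a, which encodes the stress-induced phosphatase subunit GADD34, rose in both (0.95, adjusted p = 1.98e-06, and 1.81, adjusted p = 1.75e-09). Jun was higher in both (0.34, adjusted p = 0.00917, and 0.63, adjusted p = 7.53e-05). Btg2 was higher in SAHA (0.75, adjusted p = 5.42e-05) and lower in Smarcb1-RE (-0.59, adjusted p = 0.000615), and Sik1 was lower in Smarcb1-RE (-0.69, adjusted p = 0.000654) and at 0.13 in SAHA (adjusted p = 0.4). Compared directly, 18 of the 25 were lower and 5 higher in Smarcb1-RE than in SAHA (median -0.56), beside 36.8% and 37.7% of all genes.

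Targets of NFAT and its partners were read from lists of activation and anergy genes. Of 20 tested activation targets, 16 were higher and 1 lower in SAHA (median 0.7), and 10 were higher and 6 lower in Smarcb1-RE (median 0.13). Il2, Il3, Csf2, Fasl, Cd40lg, Cd5, Icos and Ctla4 did not pass the filter on low counts. Cd69, an early activation marker, rose from 14.8 to 73.7 CPM in SAHA (2.31, adjusted p = 4.35e-09) and to 27.5 CPM in Smarcb1-RE (0.89, adjusted p = 1.22e-05). The cytokine genes Ifng (from 23.4 to 175 CPM, adjusted p = 5.37e-11) and Tnf (from 40.5 to 94.3 CPM, adjusted p = 9.6e-09) rose in SAHA. In Smarcb1-RE, Ifng was at 25.1 CPM (adjusted p = 0.199) and Tnf fell (-0.45, adjusted p = 6.21e-05). Il13 fell in both (-0.25, adjusted p = 0.00221, and -1, adjusted p = 8.71e-09). The inhibitory receptor gene Pdcd1 rose in both (1.3, adjusted p = 5.84e-08, and 2.76, adjusted p = 2.15e-11), and Bcl2l11, which encodes the pro-apoptotic protein BIM, rose in both as well (1.07, adjusted p = 4.83e-08, and 2.02, adjusted p = 5.91e-11). The inhibitory receptor gene Havcr2 was higher by 0.22 in SAHA (adjusted p = 0.0483) and by 1.64 in Smarcb1-RE (adjusted p = 1.92e-09).

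Of 8 anergy targets, 5 were higher and 3 lower in SAHA (62.5% and 37.5%, median 0.48), and 4 were higher and 3 lower in Smarcb1-RE (50% and 37.5%, median 0.22). Dgka, a diacylglycerol kinase that limits Ras activation, rose from 9.36 to 34 CPM in SAHA (1.86, adjusted p = 5.07e-09) and to 36.2 CPM in Smarcb1-RE (1.95, adjusted p = 6.85e-10). Ndrg1 rose in both (2.61, adjusted p = 3.02e-07, and 1.7, adjusted p = 1.28e-05). The ubiquitin ligase Rnf128 (GRAIL) rose in both (1.12, adjusted p = 3.44e-07, and 0.44, adjusted p = 0.000739), and so did the ligase gene Cblb (0.58, adjusted p = 6.52e-06, and 0.64, adjusted p = 1.67e-06). The ligase gene Itch fell in SAHA (-0.79, adjusted p = 9.55e-08) and was at 70.5 CPM in Smarcb1-RE against 70.7 in control (adjusted p = 0.937).

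**Figure D5:**
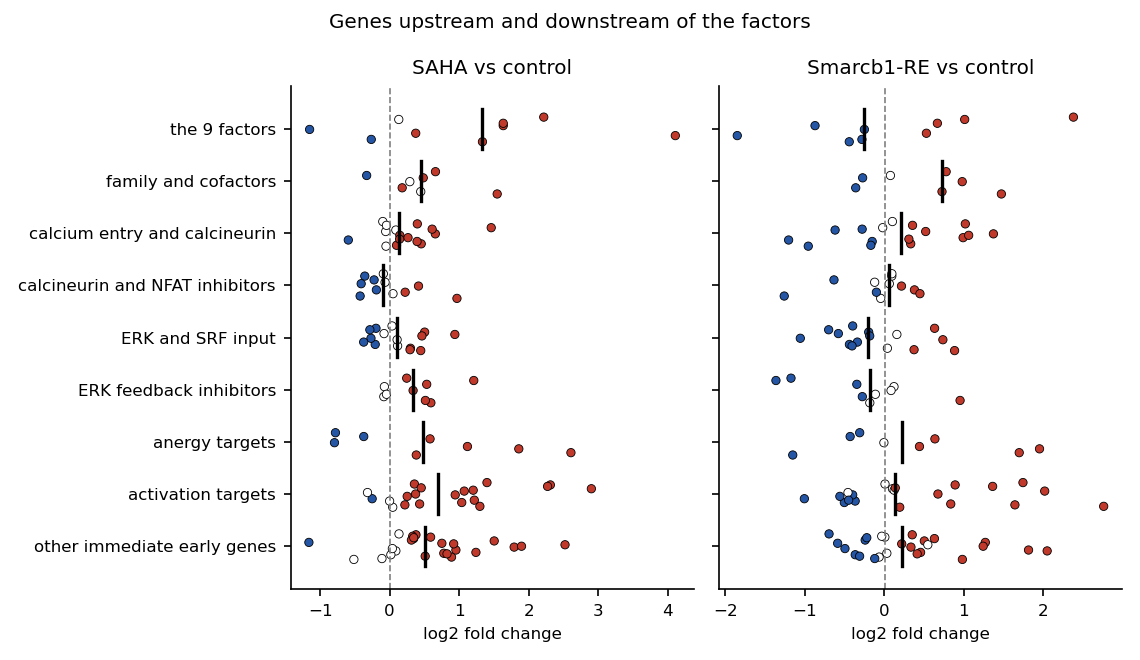
Log2 fold change of each tested gene (points) of the 9 factors and of 8 lists of genes acting with, before or after them, in SAHA against control and Smarcb1-RE against control. Red points were called higher, blue points lower and white points were not called at an adjusted p under 0.05 (edgeR). Black bars are list medians, and the dashed line marks the median of all tested genes (0 in SAHA, 0.01 in Smarcb1-RE). The medians of activation targets and other immediate early genes are 0.7 and 0.51 in SAHA, and in Smarcb1-RE 0.13 and 0.22.

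Finally, the genes whose levels ran most like each factor over the 9 libraries were listed, by the root mean square difference of log2 CPM after centring each gene on its own mean, among 11318 genes. Egr1 was closest to Bcorl1 (0.0772), and Egr2 to Tgfb1 (0.173), both at small differences. Egr3 had no close match, its nearest gene Irf8 differing by 1.07. Nr4a1 ran closest to Ppm1m (0.101), Fosl2 (0.104) and Stat2 (0.104), Nr4a2 to Zfp654 (0.0495), and Nr4a3 to the interferon-inducible gene Ifi214 (0.105). Nfatc1 was closest to Nipal3 (0.0634) and then to Bmf (0.072), Nfatc2 to Pcnt (0.102), and Nfatc3 to Prrc2b (0.0208). The measure describes likeness over 3 groups and carries no test.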

How the data were processed

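RNA-seq of T15 cells was analysed in 9 libraries, 3 each of control, SAHA and Smarcb1-RE. The authors deposited a table of estimated counts per Ensembl gene, neither normalized nor pooled, in which 52.4% of values above 0 were not whole. The libraries were directional and read single-end. The submitters' processing notes name Salmon 0.14.1, DESeq2 1.22.2, FastQC 0.11.8, MultiQC 1.7 and GRCm38. The annotation release and the strand setting of the counting are not given in the sources used here, and reads shared between paralogs or with an antisense gene may have been divided between them. Identifiers were matched to GENCODE M21 (GRCm38), which held 99.5% of them.

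Counts were rounded, filtered with filterByExpr (minimum count 10) and normalized by TMM in edgeR 4.0.16 (R 4.3.3). A single quasi-likelihood fit covered all 3 groups, p-values were adjusted by the Benjamini-Hochberg method over 13697 genes, and genes were called at 0.05. SE was derived from the log2 fold change and the F statistic (their ratio, with F under the root). The calculations were tested on simulated counts. CPM use TMM-scaled library totals, between 20900477 and 24941494 before scaling. Promoter windows are RefSeq windows of 250 bases on GRCm38.p6.

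The members and gene lists were chosen with earlier results of these data known. Named list genes were up to 4 called genes per list and comparison with control, those that moved most, if their average log2 CPM reached 1, besides Nab1, Nab2, Rcan1, Srf and the calcineurin subunits. Some genes that this rule names are not reported here. For each factor the 3 nearest genes by the root mean square measure were computed. A gene that the rule named in one comparison with control is given with its value in the other where a direction is stated. Alternatives were DESeq2 1.42.0, RLE factors, no low-count filter, library totals alone, at least 10 counts in every library, pairwise fits, a replicate block, an adjusted p of 0.01, an absolute log2 fold change of at least 1, each library left out, and the longest transcript as length.

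The labels do not say whether the replicate numbers in the titles pair samples across groups, and no sign of pairing was seen. Deviations from the group means of libraries with the same number correlated between -0.0586 and 0.0382 across genes, and 0 of 9 pairs exceeded 0.1. Such low values cannot exclude that libraries with the same number were handled together. Replicates differed by more than sampling noise (chi-square per gene 2.08 to 15, the largest in pairs with control library 1).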

Additional observations from a re-analysis of the deposited data

How the results depend on the processing

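Of 482 values of a factor's fold change under an alternative, 448 kept their direction and side of the threshold, 28 lost and 4 gained the call, and 2 turned in direction. Both were Nfatc3 in Smarcb1-RE against SAHA, which was 0.14 with library totals only and 0.01 with at least 10 counts in every library, and which was not called in either. In Smarcb1-RE against control, 3 factors and not 5 were lower with library totals only, with at least 10 counts in every library and with separate fits to each pair of groups. With library totals only, Nfatc2 (-0.09, adjusted p = 0.432) and Nfatc3 (-0.12, adjusted p = 0.149) were not called, the median of all genes moved to 0.173, and 61% of called genes were higher against 50.4%. With at least 10 counts in every library, Nfatc2 was not called (-0.19, adjusted p = 0.0794) and Egr3 was not tested. Separate fits left Nfatc2 uncalled (-0.26, adjusted p = 0.0556), and Egr3 was not tested in that of Smarcb1-RE and control, since it did not pass the low-count filter there. A minimum absolute log2 fold change of 1 left 1 factor lower in SAHA, 2 higher and 1 lower in Smarcb1-RE, and 0 higher in Smarcb1-RE against SAHA, where edgeR called 3 without it. Nr4a3 in Smarcb1-RE against SAHA was called with library totals only (0.32, adjusted p = 0.00158), at least 10 counts in every library (adjusted p = 0.029) and pairwise fits (adjusted p = 0.00429). Of the list counts in Smarcb1-RE against control, library totals only moved calcium and calcineurin genes from 6 to 3 lower, calcineurin and NFAT inhibitors from 3 to 6 higher and other immediate early genes from 8 to 5 lower, and DESeq2 and an adjusted p of 0.01 both moved family and cofactor genes from 4 to 2 higher. A minimum absolute log2 fold change of 1 left 9 of 16 activation targets and 5 of 18 other immediate early genes higher in SAHA, and 5 of 10 and 4 of 12 in Smarcb1-RE. The causes were not tested beyond the construction of each alternative.

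With the replicate number as a block, the counts were 6 higher and 2 lower in SAHA, 4 and 5 in Smarcb1-RE, and 3 and 4 between them, and it changed no call of a factor (Egr3 in Smarcb1-RE against control, adjusted p = 0.0148). Since no sign of pairing by number was seen, this is not read as a weaker or stronger effect. Depth limits Egr3 most, whose Smarcb1-RE level lies at 0 to 4 counts per library.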
